A study of Arabidopsis thaliana with 6 samples.

Results

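Expansins are the wall-loosening proteins of growing plant cells. The 35 expansin genes described here are 25 EXPA (alpha-expansin), 6 EXPB (beta-expansin), 3 EXLA (expansin-like A) and 1 EXLB (expansin-like B) genes of *Arabidopsis thaliana*. They were chosen by locus as members of these subfamilies, and each has 1 of the 27827 probe sets in the table. Their transcripts were compared between *naa20* seedlings on 2 mM DTT and wildtype seedlings on 2 mM DTT, with 3 arrays per genotype. *naa20* is a single T-DNA insertion line in the Col-0 background in which NAA20, the catalytic subunit of the N-terminal acetyltransferase NatB, is depleted, and wildtype is Col-0. DTT is a reducing agent that hinders disulfide bond formation and so disturbs protein folding in the endoplasmic reticulum. By the labels, seedlings of both genotypes were moved at 2 days to DTT medium, stayed there for 15 days in short days of 8.5 h light and were harvested whole at 17 days, in pools of at least 10 seedlings. The supplement of the paper describes RNA of individual plants instead, and the methods give *naa20* seeds a start on control medium before DTT. Since every array comes from DTT medium, no value here gives an effect of DTT.

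Expansins act in the acidified cell wall, where they loosen the contact between cellulose and its matrix without cutting polymers, so that the wall yields to turgor. Alpha-expansins are the classical mediators of acid growth, and beta-expansins are best known from the pollen allergens of grasses. Expansin-like proteins share the domain structure, but a loosening activity has not been established for them.

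The signals are log2 values from quantile-normalized arrays, with a minimum of 1.75, a median of 6.12 and a maximum of 14.6 on each array. The *NAA20* transcript was lower in *naa20*, at -1.38 on the log2 scale (standard error 0.16, adjusted p = 0.000689 from limma). Markers of root and leaf cells gave signals above the lowest 25% of all probe sets by mean signal for the most part, whereas the flower and pollen markers *AP1*, *AP3* and *VGD1* all lay in that range. Deviations of equally numbered arrays from their genotype means correlated across probe sets at 0.176, 0.19 and 0.385 for the first, the second and the third arrays. The first *naa20* array correlated nearly as well with the second wildtype array (0.174), and the second *naa20* array with the first wildtype array (0.145), so the third arrays alone stood apart by number. What an array number shares is not given in the labels, and the p-values measure the spread between these arrays, which may in part be technical. A gene was called different at an adjusted p under 0.05 over all probe sets in limma together with at least a 2-fold difference.

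Of the 35 expansin genes, 11 were called different between *naa20* and wildtype, 2 higher and 9 lower in *naa20*. This is 31.4% of the family, where 9.92% of all probe sets were called, 4.95% higher and 4.97% lower. At an adjusted p under 0.05 and any fold there were 18 members, 2 higher and 16 lower, and this limit was passed by 33.9% of all probe sets. The arrays of the genotypes did not overlap for 23 members, and for 47.5% of all probe sets. *naa20* was above wildtype for 4 of them and below it for 19, where 24.1% of all probe sets had *naa20* below without overlap. Of the 35 differences 12 were above 0, against 49.6% over all probe sets. The median log2 difference (*naa20* minus wildtype) over the family was -0.34, beside -0.0039 over all probe sets. Single members lay between -4.08 for *EXPA18* and 2.11 for *EXLA1*. The 25% of all probe sets with the lowest mean signal held 5 members, *EXPA2*, *EXPA21*, *EXPA26*, *EXPB4* and *EXLA3*. Of these, 0 passed an adjusted p under 0.05 in limma, and 0 had an unadjusted p under 0.05, while 1.58% of all probe sets in this range were called.

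Both root-hair expansins were called lower in *naa20*. *EXPA18* (AT1G62980, chromosome 1) had log2 signals of 3.50, 4.41 and 5.34 on the *naa20* arrays, against 8.69, 8.38 and 8.43 on the wildtype arrays. The groups stood far apart, although the *naa20* arrays spread more widely (SD 0.92) than the wildtype arrays (SD 0.17, n = 3 each). The log2 difference of *EXPA18* was -4.08 (standard error 0.41, adjusted p = 0.000378 from limma), which is 16.9-fold lower in *naa20* and rank 25 from the lowest of all 27827 probe sets. *EXPA7* (AT1G12560, chromosome 1) had 5.47, 5.21 and 5.84 in *naa20*, against 7.65, 7.23 and 7.33 in wildtype. Its groups did not overlap either, and the difference was -1.89 (standard error 0.18, adjusted p = 0.000327 from limma), or 3.71-fold lower. In an exact two-sided permutation test of a single gene, 3 arrays against 3 cannot go below p = 0.1, and each gene whose groups do not overlap has this value. In RNA of whole seedlings, fewer cells of a type and less RNA per cell cannot be told apart.

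The pair had a median difference of -2.99, and the 33 other members had one of -0.20. Of those 33, 9 were called (27.3%, against 9.92% of all probe sets). *EXPB1* (-3.26), *EXPA17* (-3.13), *EXPA8* (-2.31) and *EXPB3* (-2.26) among them lay below *EXPA7* (-1.89). Root-hair markers were measured on the same arrays. Of 6 such markers 4 were called lower (66.7%, against 9.92% of all probe sets) and 0 higher. Their summed linear signal was 688 to 1027 in *naa20* and 1917 to 2216 in wildtype. *RBOHC* was called close to the 2-fold limit (-1.01, adjusted p = 0.0317 from limma). Only 3 markers were called with ordinary variance, and 3 without any 1 array other than the third *naa20* array. *LRX1*, a root-hair wall protein, differed by -5.27 (adjusted p = 2.15e-05 from limma), and *PRP3*, a proline-rich wall protein, by -3.84 (adjusted p = 2.08e-05 from limma). The markers were not equally low, since *CSLD3*, a cellulose synthase-like protein needed for hair growth, had 9.06, 8.95 and 9.29 in *naa20* and 9.06, 9.03 and 9.08 in wildtype. On the third *naa20* array, where *EXPA7* and *EXPA18* had their highest *naa20* signals, *COBL9* (5.46), *RBOHC* (8.28) and *LRX1* (4.76) had theirs as well, and so had *CSLD3*. *PRP3* was highest on the first *naa20* array (3.96, against 3.86 on the third), and *ADF8* was lowest on the third (2.03). *ADF8* was the marker of this list within the lowest 25% of probe sets.

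Of 9 markers of other root tissues 6 passed the adjusted p, all lower in *naa20* (66.7%, against 33.9% of all probe sets), and 3 did not. Called lower were 3 (33.3%, against 9.92% of all probe sets), with differences of -2.43 for *CASP1* of the endodermis, -2.29 for *PHO1* of the stele and -1.58 for *GL2* of the non-hair epidermis. The summed linear signal of all 9 markers was 1045 to 1250 in *naa20* and 3677 to 4289 in wildtype. *CASP1* and *PHO1* weigh most in this sum, with the highest wildtype signals of the list (means of 10.64 and 10.44). *SHR* of the stele had the highest difference of the list, 0.01, and *SMB* and *BRN2* lay in the lowest 25% of probe sets. The part of these marker differences in the expansin values was not tested.

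The bHLH factors that start root hairs and drive their growth were measured on the same arrays. *RSL4*, which drives hair elongation, had 3.85, 4.0 and 4.04 in *naa20*, against 5.82, 5.89 and 5.51 in wildtype. The groups were well separated, and *naa20* was lower by 3.43-fold (-1.78 on the log2 scale, standard error 0.12, adjusted p = 9.18e-05 from limma). *RHD6*, which acts before *RSL4*, differed by -1.10 (adjusted p = 0.000391 from limma), and its *naa20* signals of 2.59, 2.71 and 2.93 lay near the lower end of the arrays. *RSL1* (-0.72) and *RSL2* (-0.64) passed the adjusted p but not the 2-fold limit. AT2G14760 (-0.076, adjusted p = 0.648 from limma) and AT5G43175 (0.085, adjusted p = 0.559), listed with them, did not pass.

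**Figure D1:**
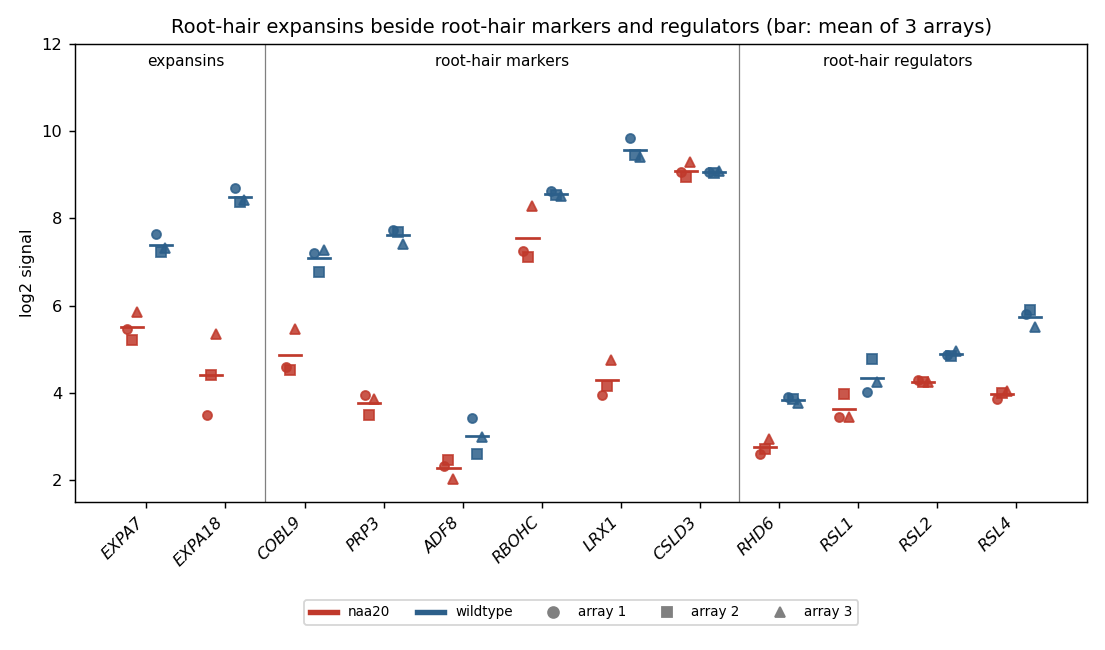
Log2 signal on each array of *EXPA7*, *EXPA18*, 6 root-hair markers and 4 root-hair regulators, *naa20* in red left of wildtype in blue, with a symbol for each array number and a bar at the mean of 3 arrays. *LRX1* and *EXPA18* have the widest gaps between the genotype means, and the arrays of *CSLD3* overlap.

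*EXPA17* was called lower in *naa20*. This gene (AT4G01630, chromosome 4) serves lateral root formation and had 3.97, 4.29 and 4.29 in *naa20*, against 7.72, 7.45 and 6.76 in wildtype. The *naa20* arrays lay close together and far below all wildtype arrays. The difference was -3.13 (standard error 0.24, adjusted p = 0.000132 from limma), or 8.75-fold lower. *EXPA14* (AT5G56320, chromosome 5), like *EXPA17* a gene downstream of the lateral root factor LBD18, had 4.49, 4.33 and 4.39 in *naa20*, against 5.22, 4.87 and 5.51 in wildtype. It was lower without overlap but by less than 2-fold (-0.80, standard error 0.16, adjusted p = 0.0082 from limma). *LBD18* itself differed by -0.24 (adjusted p = 0.36 from limma).

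*EXPA1*, *EXPA8* and *EXPA15* were lower in *naa20* on arrays of every number, and all 3 had their lowest signal on the third array of both genotypes. The third array was lowest in both genotypes for 8 of the 35 members (22.9%), and for 18.4% of all probe sets. *EXPA8* (AT2G40610, chromosome 2) had 8.75, 8.43 and 6.71 in *naa20*, against 10.90, 10.93 and 8.99 in wildtype. The groups did not overlap, but the third wildtype array came close to the first *naa20* array. The difference was -2.31 (standard error 0.68, adjusted p = 0.0353 from limma), or 4.97-fold lower, and with the array number as a block the adjusted p was 0.000223. The call was lost in 6 of 13 alternatives, 4 of them without 1 array: adjusted p = 0.0611 and 0.0785 in limma without the second and the third *naa20* array, and 0.111 and 0.11 without the first and the second wildtype array.

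*EXPA1* (AT1G69530, chromosome 1), which acts in guard cells and lateral root founder cells, had 8.64, 8.53 and 6.95 in *naa20*, against 10.28, 10.31 and 8.72 in wildtype. The third wildtype array was barely above the first and second *naa20* arrays. The difference of -1.73 (standard error 0.57) was not called, at an adjusted p = 0.054 from limma, and with the array number as a block it was called at an adjusted p = 0.000281. It was also called with the lowest 25% of probe sets left out (adjusted p = 0.0492), with array weights (0.0199), without the third wildtype array (-2.26, 0.0162) and without the third array of both genotypes (-1.71, 0.000411). Without the third *naa20* array it was -1.19 (adjusted p = 0.118 from limma). Within equal numbers the differences were -1.64, -1.78 and -1.77, beside -2.16, -2.50 and -2.28 for *EXPA8*. Of 4 markers of the stomatal lineage 1 was called, *SPCH* of its early divisions, lower in *naa20* (-2.02). Over all probe sets 9.92% were called. The later guard cell genes *KAT1* (-0.13), *MYB60* (0.08) and *FAMA* (0.09) did not pass the adjusted p. The part of these 4 markers in the values of *EXPA1* was not tested. *EXPA15* (AT2G03090, chromosome 2) had 5.71, 6.01 and 5.28 in *naa20*, against 7.55, 7.51 and 6.47 in wildtype. It was called lower without overlap (-1.51, standard error 0.32, adjusted p = 0.00947 from limma), or 2.85-fold.

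*EXPA16* (AT3G55500, chromosome 3) had a difference that turned on a single array. Its signals were 7.42, 7.28 and 7.58 in *naa20*, against 6.23, 6.46 and 8.71 in wildtype. The third wildtype array was the highest of all 6 and the other wildtype arrays were the lowest. The difference was 0.30 (standard error 0.60, adjusted p = 0.757 from limma), and without the third wildtype array it was 1.08 (adjusted p = 0.00177 from limma). *EXPA1* and *EXPA8* had a third-array signal at least 1 log2 unit below the mean of the other 2 in both genotypes. They are 5.71% of the family, and 0.266% of all probe sets had such a signal. This count was added after the values of both genes were seen, so it is a description only.

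**Figure D2:**
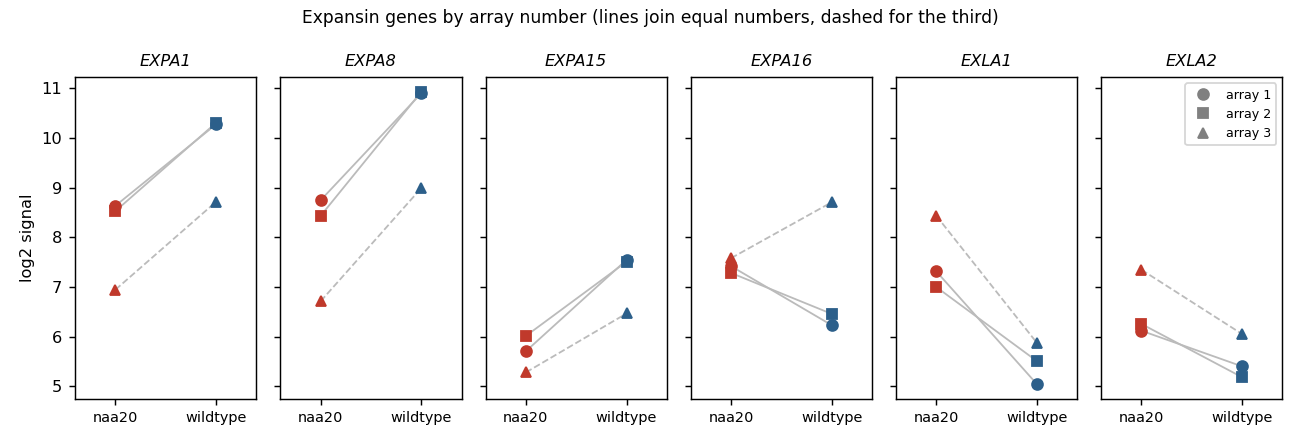
Log2 signal of *EXPA1*, *EXPA8*, *EXPA15*, *EXPA16*, *EXLA1* and *EXLA2*, *naa20* left of wildtype, with lines that join equally numbered arrays and a dashed line for the third arrays. For *EXPA1* and *EXPA8* the dashed line runs below and nearly parallel to the others, and for *EXPA16* it runs the other way.

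*EXPA3*, *EXPA5* and *EXPA10* gave calls of similar size, the last in the other direction. *EXPA3* (AT2G37640, chromosome 2) had 8.24, 8.50 and 8.13 in *naa20*, against 9.94, 9.88 and 9.37 in wildtype, so that *naa20* minus wildtype was -1.44 (standard error 0.18, adjusted p = 0.000821 from limma). *EXPA5* (AT3G29030, chromosome 3) had 4.94, 4.95 and 5.45 in *naa20*, against 6.55, 6.65 and 6.41 in wildtype, which gave -1.42 (standard error 0.16, adjusted p = 0.000548 from limma). For both genes every *naa20* array lay below every wildtype array. *EXPA10* (AT1G26770, chromosome 1), known from leaf growth and the base of the pedicel, had 9.59, 9.24 and 8.51 in *naa20*, against 7.57, 7.88 and 7.66 in wildtype. All *naa20* arrays lay above wildtype, at 1.41 on the log2 scale (standard error 0.26, adjusted p = 0.00538 from limma), and it was the alpha-expansin called higher. Of 3 leaf markers 1 was called (33.3%, against 9.92% of all probe sets), *LHCB1.2*, lower in *naa20* (-2.17). *RCA* was lower by less than 2-fold (-0.39, adjusted p = 0.0137 from limma). *RBCS1A* read 14.18 on every array, so it could show no difference. The part of these 3 markers in the *EXPA10* value was not tested.

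Smaller differences passed the adjusted p in 5 further alpha-expansins. *EXPA6* differed by -0.89 (adjusted p = 0.00667 from limma), *EXPA9* by -0.77 (0.0388), *EXPA4* by -0.58 (0.046) and *EXPA13* by -0.34 (0.0323), beside the -0.80 of *EXPA14*. All 5 were lower in *naa20*. With 1 array left out, *EXPA4*, *EXPA9* and *EXPA13* each missed the limit in several fits (adjusted p up to 0.129, 0.116 and 0.101 from limma). *EXPA13* missed the limit with the array number as a block (adjusted p = 0.0501), whereas *EXPA11*, with a difference of -0.44, passed it there (adjusted p = 0.0124, against 0.231 without the block, limma). *EXPA12* differed by -0.20, *EXPA20* by 0.15 and *EXPA2*, known from germinating seeds, by 0.13, and 0 of these had an unadjusted p under 0.05.

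*EXPA21* to *EXPA26* lie next to each other on chromosome 5, in the order *EXPA21*, *EXPA22*, *EXPA23*, *EXPA26*, *EXPA25* and *EXPA24*, with no other gene between them in the RefSeq annotation of TAIR10.1. Their differences were 0.13, 0.20, 0.37, -0.16, -0.12 and -0.16 in that order. Of these 6 genes 0 were called or passed the adjusted p in limma, and 1 had an unadjusted p under 0.05, *EXPA23* (adjusted p = 0.0555), with 4.86, 5.21 and 5.22 in *naa20*, against 4.76, 4.62 and 4.79 in wildtype. The median of the 6 was 0.01, and that of the 17 alpha-expansins outside this run and the root-hair pair was -0.77. Of those 17, 6 were called (35.3%, against 9.92% of all probe sets). Whether probes of these close copies share sequence was not tested.

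**Figure D3:**
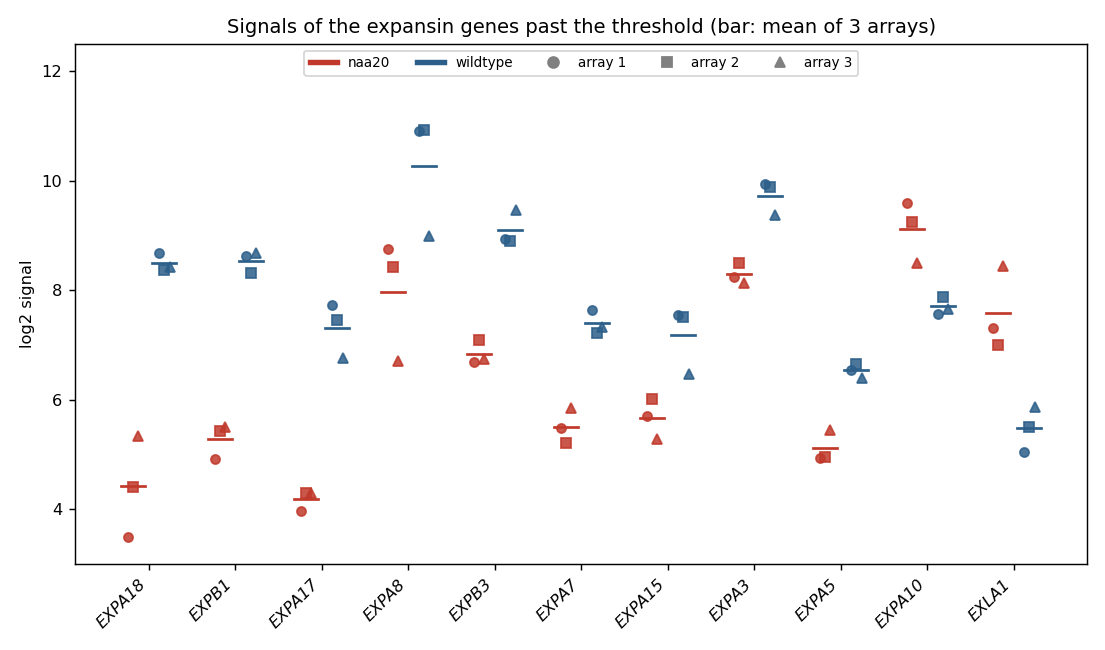
Log2 signal on each array of the 11 expansin genes called different, *naa20* in red left of wildtype in blue, with a symbol for each array number and a bar at the mean of 3 arrays. For all 11 genes the genotypes do not overlap, and *EXPA10* and *EXLA1* are those with *naa20* above wildtype.

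Beta-expansins included the second lowest difference of the family. *EXPB1* (AT2G20750, chromosome 2) had 4.92, 5.43 and 5.49 in *naa20*, against 8.62, 8.32 and 8.67 in wildtype. With -3.26 (standard error 0.18, adjusted p = 3.95e-05 from limma), or 9.57-fold lower, it was rank 64 from the lowest of all probe sets. *EXPB3* (AT4G28250, chromosome 4) had 6.68, 7.08 and 6.74 in *naa20*, against 8.93, 8.89 and 9.46 in wildtype. Its groups did not overlap either, with -2.26 (standard error 0.18, adjusted p = 0.000158 from limma), or 4.78-fold lower. *EXPB2* (AT1G65680, chromosome 1) had 4.16, 4.37 and 4.23 in *naa20*, against 5.47, 4.69 and 5.23 in wildtype, and was lower by less than 2-fold (-0.88, adjusted p = 0.0117 from limma). Its neighbour on the chromosome, *EXPB6*, differed by 0.06, *EXPB5* by 0.01 and *EXPB4* by -0.11, and 0 of these had an unadjusted p under 0.05. Of the 6 beta-expansins 2 were called (33.3%, against 9.92% of all probe sets), both lower, and the median was -0.49.

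Of the 3 expansin-like A genes 1 was called (33.3%, against 9.92% of all probe sets), higher in *naa20*. *EXLA1* (AT3G45970, chromosome 3) had 7.32, 7.0 and 8.44 in *naa20*, against 5.04, 5.51 and 5.87 in wildtype. All *naa20* arrays lay above wildtype, and at 4.32-fold higher (2.11 on the log2 scale, standard error 0.38, adjusted p = 0.0048 from limma) it had the highest difference of the family. *EXLA2* (AT4G38400, chromosome 4), which is known from hypocotyl growth in the dark, had 6.12, 6.26 and 7.35 in *naa20*, against 5.40, 5.18 and 6.05 in wildtype. The first *naa20* array was just above the third wildtype array, and at 1.03 (standard error 0.36) it was not called, with an adjusted p = 0.0644 from limma. With the array number as a block it was called (adjusted p = 0.00319), and so it was without the third wildtype array (1.28, adjusted p = 0.0393 from limma) and with array weights (1.01, adjusted p = 0.0333). Without the third *naa20* array the difference was 0.64 (adjusted p = 0.109 from limma), and without the second wildtype array it was 0.85 (adjusted p = 0.18). *EXLA3* (AT3G45960), 1 gene away from *EXLA1*, had 3.31, 3.27 and 4.11 in *naa20*, against 3.34, 3.15 and 3.38 in wildtype, with overlap (0.28, adjusted p = 0.399 from limma). All 3 had their highest signal on the third array of both genotypes, as 8 of the 35 members did (22.9%), against 15.7% of all probe sets. *EXLB1* (AT4G17030, chromosome 4) had 5.73, 5.79 and 5.92 in *naa20*, against 6.29, 6.53 and 6.36 in wildtype. It was lower by less than 2-fold (-0.58, standard error 0.10, adjusted p = 0.00418 from limma).

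Proton pumps of the plasma membrane acidify the wall in which expansins act. Of 11 *AHA* pump genes 1 was called, lower in *naa20* (9.09%, close to the 9.92% of all probe sets), and 6 passed the adjusted p, 3 higher and 3 lower (54.5%, against 33.9%). *AHA7* had 4.60, 4.58 and 4.40 in *naa20*, against 8.17, 7.49 and 7.61 in wildtype. The arrays were far apart (-3.23, standard error 0.18, adjusted p = 4.4e-05 from limma). *AHA3* had the highest difference, 0.63, and *AHA2*, the main root pump, differed by -0.0013 (adjusted p = 0.996 from limma). The median of the 11 was -0.0013.

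Of 16 genes for cellulose and xyloglucan synthesis 3 were called, all lower in *naa20* (18.8%, against 9.92% of all probe sets), and 7 passed the adjusted p, 2 higher and 5 lower (43.8%, against 33.9%). The 3 were *CESA4* (-1.29), *CESA7* (-1.30) and *CESA8* (-1.20), the cellulose synthases of the secondary wall. *CSLC4*, the xyloglucan backbone synthase, had the highest difference, 0.69. The median of the 16 was -0.25. Of 15 regulators of expansin genes or of the growth in which they act 2 were called, *RSL4* and *RHD6*, and 6 passed the adjusted p, all lower in *naa20*. These are 13.3% and 40.0% of the list, near the 9.92% and 33.9% of all probe sets. The highest of the list was AT5G43175 with 0.09, and 14 of 15 differences were below 0, against 50.4% of all probe sets. *PIF4*, a growth factor of the hypocotyl, differed by -1.21 without passing in the main fit (adjusted p = 0.0656 from limma). With the array number as a block 3 of the 15 were called. *PIF4* was the only regulator beyond *RSL4* and *RHD6* with at least a 2-fold difference.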

How the data were processed

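Whole-seedling RNA was hybridised to Arabidopsis Gene 1.0 ST arrays (3 *naa20*, 3 wildtype). As deposited, the signals are log2 values that the authors made by RMA with quantile normalization and a custom CDF, version 16, of TAIR gene models; the genome build is not given in the sources used here. They were used unchanged. The precision is limited by the number of arrays. The genotype term was tested by moderated linear models (limma 3.58.1 under R 4.3.3, default eBayes) and Benjamini-Hochberg adjustment over 27827 probe sets. limma was tested on simulated data. Loci were matched to RefSeq names (35 of 35 members). Members and gene lists were chosen with earlier results of these data known. All members, and of each other list described above its extremes and the genes past the limits, were named. The shoot meristem markers *STM* (0.33) and *CLV3* (-0.046) were measured as well and were not called. *LBD18*, *AHA2*, *PIF4*, *KAT1*, *MYB60*, *SMB*, *BRN2* and *RCA* were added after their values were seen, as were the third-array values. Array numbers were checked for pairing: correlations of 0.176, 0.19 and 0.385 all passed 0.1 (unequal first and second arrays: 0.174 and 0.145), so block results are given where they change a call. Alternatives were moderation, array weights, centring, filters, fold limits and arrays left out. Lists were described by counts and medians, without a list test.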

Additional observations from a re-analysis of the deposited data

How the results depend on the processing

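Of the 11 members called, 9 stayed called in all 13 alternatives tried for each of them. *EXPA10* and *EXLA1*, both called higher, stayed only narrowly with ordinary variance (adjusted p = 0.0493 and 0.0491, limma fit without moderation). *EXPA8* was lost in 6 (adjusted p = 0.000223 to 0.148 over its alternatives) and *EXPA15* with ordinary variance (0.0694, limma fit without moderation). The number of members called was 10 to 15 with 1 array left out, 9 with ordinary variance and 18 with no fold limit, of which 16 were lower. That count without a fold limit was 14 to 19 with 1 array left out and 12 with ordinary variance. Called higher were 2 to 4 members with 1 array left out (4 without the third wildtype array), and called lower 8 to 11. With array number as a replicate block 13 were called, the same 11 with *EXPA1* and *EXLA2*, and 13 also without the third array of both genotypes, an alternative added after seeing the data. Over all probe sets 2586 to 2898 were called with 1 array left out, 9447 with no fold limit and 5834 with a 1.5-fold limit. The median difference of the members was -0.58 with the lowest 25% left out, -0.31 with array weights and -0.36 to -0.29 with 1 array left out. A sign turned for 5 members, 0 of them called: *EXPA16* (-0.16 to 1.08 with 1 array left out), *EXPA25* (-0.29 to 0.024), *EXPA26* (-0.32 to 0.019), *EXPB5* (-0.11 to 0.16, -0.071 with array weights, -0.18 without the third array of both genotypes) and *EXPB6* (-0.13 to 0.17). The median of *EXPA21* to *EXPA26* turned as well (-0.056 to 0.054 with 1 array left out, -0.011 with array weights, -0.045 without the third array of both genotypes). The cause was not tested. The 5 members in the lowest 25% by mean signal lie close to the lower limit of the arrays, where a difference may not be measurable.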
